A study of Mus musculus with 23 samples.

Results

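Lysosomes and the proton pump that acidifies them were followed in RNA from mouse striatal microglia through 43 named genes of the 35976 in the deposited table. They comprised cathepsins, other lysosomal hydrolases and their cofactors, lysosomal membrane proteins, the transcription factors Tfeb and Tfe3, and 13 genes of the vacuolar proton ATPase (V-ATPase). Members were taken by gene symbol with no cutoff on their values, though earlier results of these data were known. Of these, 42 had enough counts to be tested. The remaining one, Atp6v0d2, which encodes an alternative d subunit of the pump, had 0 counts in all 23 libraries. A count of 0 allows up to 0.0325 to 0.0551 counts per 1e6 counts (CPM) by library, counting error only.

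All libraries came from male C57BL/6J mice, stated to be 9 weeks old, with an intravenous catheter and 15 daily sessions of 2 hr in a lever chamber. The Saline group (n = 8 libraries) received saline infusions and the Maintenance group (n = 8) methamphetamine at 0.05 mg/kg per infusion, and microglia were isolated after the last session. The Abstinence group (n = 7) took methamphetamine in the same way and then stayed 21 days in the home cage without it. No Saline group that also waited 21 days was analysed here, so drug history, age and time since the sessions cannot be told apart in Abstinence against Saline. The labels do not say whether a library is 1 mouse or a pool, and p-values measure the spread between libraries.

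Lysosomes receive endocytosed, phagocytosed and autophagic cargo and break it down with acid hydrolases. The V-ATPase uses ATP in its cytosolic V1 sector to drive protons through its membrane V0 sector, which keeps the lumen acidic. Microglia are phagocytes and are known for high expression of cathepsins and other lysosomal proteins. TFEB and TFE3 are transcription factors that bind E-box-like sites in promoters of lysosomal genes, and they are held in the cytosol when mTORC1 is active at the lysosomal surface.

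Total counts were 55 to 94.8 M (1e6) per library, and the members took 5.69% to 7.40% of them. Microglial marker genes summed to 41700 to 63500 CPM, while oligodendrocyte markers summed to a median of 1750 CPM in Saline, 3920 in Maintenance and 3580 in Abstinence. In the same order the medians were 474, 109 and 428 for erythrocyte markers and 44.4, 16.6 and 31.8 for monocyte markers. Neutrophil markers had 136, 92.8 and 67.3, and border-associated macrophage markers 215, 283 and 242. The ranges of the groups overlapped for each of these. The part of erythrocyte and monocyte RNA in the results was not tested. The library Maintenance 8 stood apart: its 8 choroid plexus and ependymal markers summed to 73700 CPM, against 104 to 329 in the other 7 Maintenance libraries, 23.1 to 283 in Saline and 106 to 355 in Abstinence. Its microglial markers were the lowest of the Maintenance group, at 41700 CPM against 51200 to 62000. Maintenance 6 and 7 had the fewest genes detected, 12459 and 12740. Values without these libraries are given for the members whose call they decide and for those they move most. In RNA from a cell isolate, fewer cells of a type and less RNA per cell cannot be told apart.

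In Saline microglia the proteases dominated. Levels per length are CPM per kilobase of merged exons, and ranks are among 14622 genes with a length. Ctss, cathepsin S, a cysteine protease of antigen-presenting cells, stood at 11850 ± 831 (SD, n = 8) and ranked 3. Lgmn, the asparaginyl endopeptidase legumain, ranked 6 at 4348 ± 373, and Ctsd, the aspartic protease cathepsin D, ranked 7 at 4307 ± 538. Legumain and cathepsin D do not differ beyond their spread. Next came Psap, the precursor of the saposins that help hydrolases reach sphingolipids, at 2106 ± 193, then Ctsz at 1239 ± 115, and Cd68 at 983 ± 87.4 beside Ctsb at 978 ± 81.2, also within their spread.

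Among the 42 members, 12 were in the top 1% of genes by this measure, 31 in the top 10% and 41 above the median. Of the glycosidases, which trim sugars from glycolipids, glycoproteins and glycosaminoglycans, Hexa (the hexosaminidase alpha chain) was highest per length at 516 ± 49.4 and Gaa (acid alpha-glucosidase) lowest at 10.8 ± 2.64. Within the pump, the accessory protein gene Atp6ap1 (248 ± 23.8) and the V0 gene Atp6v0b (231 ± 16.6) were far above Atp6v1a (18.4 ± 1.86) and Atp6v1h (9.00 ± 0.45). Tfeb had the lowest level of the tested members, 1.66 ± 0.38, and Tfe3 stood at 13.1 ± 1.97.

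**Figure D1:**
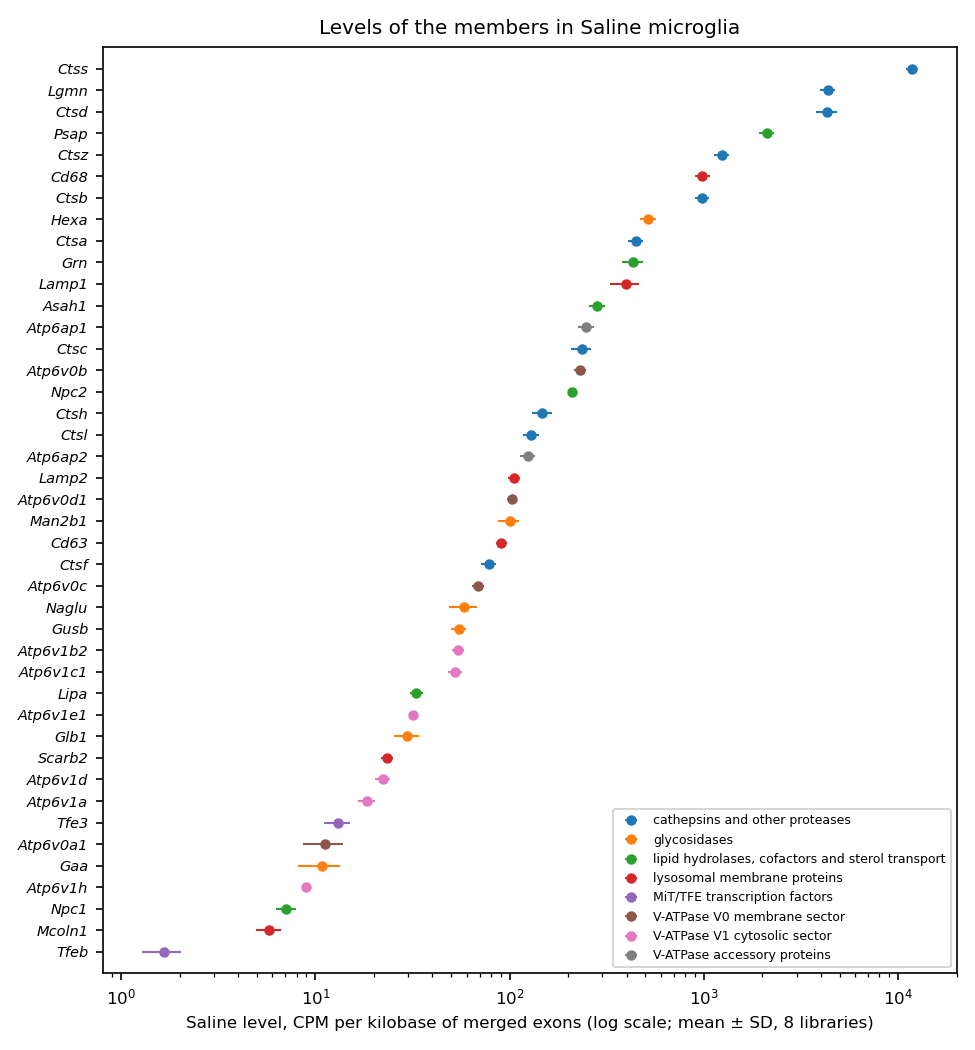
Saline level of each tested member in CPM per kilobase of merged exons (log axis; points are means and bars SD over 8 libraries, coloured by role). Ctss is highest at 11850 and Tfeb lowest at 1.66.

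A short sequence was looked for in the promoters of the members. The E-box CACGTG, which reads the same on both strands, lies at the core of the element bound by TFEB and TFE3. RefSeq promoter windows (GRCm38.p6, 250 bases before to 50 after a start site) were at hand for 35 members. Npc1, Atp6v0d2, Ctsb, Atp6v1h, Atp6v1c1, Atp6v1b2, Asah1 and Ctsh were not matched. CACGTG occurred in 13 of the 35 members (37.1%), in 11.2% of 11881 tested genes with a window and in 8.09% of 27025 genes with one. The extended form TCACGTGA, which contains CACGTG, occurred in 5 of 35 (14.3%) and in 2.00% of tested genes. The full palindrome of the CLEAR element (coordinated lysosomal expression and regulation) and 1 variant of it, searched on both strands, occurred in 0 of 35 and in 0.724% and 0.177% of tested genes. These shares are descriptions of letters in a window.

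Stretches upstream of the start site are shown for the called member with an E-box (Naglu), for Ctsd, for the 2 membrane protein genes with several copies (Lamp1, Mcoln1) and for 1 gene of each pump sector, with CACGTG in capitals, 5′ to 3′ on the gene's strand. They lie at chr11:101070006-101070041 (plus strand), chr7:142387905-142387940 (minus), chr8:13159085-13159160 (plus), chr8:3500433-3500494 (plus), chr4:117887330-117887380 (minus) and chr16:44139370-44139405 (minus) of GRCm38.p6, in the order listed.
Naglu: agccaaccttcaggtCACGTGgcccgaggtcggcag
Ctsd: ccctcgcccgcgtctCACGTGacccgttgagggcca
Lamp1: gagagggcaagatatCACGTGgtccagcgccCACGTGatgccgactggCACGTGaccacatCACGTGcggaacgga
Mcoln1: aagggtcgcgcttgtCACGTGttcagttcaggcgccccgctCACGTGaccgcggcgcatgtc
Atp6v0b: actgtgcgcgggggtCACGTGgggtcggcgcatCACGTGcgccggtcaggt
Atp6v1a: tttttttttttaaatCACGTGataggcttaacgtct
The Lamp1 stretch holds 4 copies, which begin 61, 45, 28 and 15 bases before the start site. That of Naglu begins 73 bases before it. The windows of Gusb and Atp6v1d, the other called members, do not hold these letters.

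Methamphetamine taking was compared with saline taking first. In Maintenance against Saline, 3 of 42 members passed an adjusted p of 0.05 (edgeR quasi-likelihood test, Benjamini-Hochberg over 16121 genes): Gusb and Naglu fell and Atp6v1d rose. Over all genes tested, 0.707% passed, 0.335% higher and 0.372% lower. At an unadjusted p under 0.05 there were 8 members (19%) against 11.8% of all genes. The median log2 fold change of the members was -0.06, and that of all genes 0.01. Without Maintenance 6, 7 and 8 these medians were -0.02 and -0.03, and with oligodendrocyte and neutrophil marker means as covariates both were 0.01. With 1 library left out, that of the members came nearest 0 without Maintenance 7 (-0.03), Maintenance 6 (-0.04) or Saline 6 (-0.04). The median of all genes was -0.07 with a replicate block and -0.08 with limma voom, where the members were at -0.07 and -0.06. The Maintenance and Saline ranges overlapped for all 42, while 0.167% of all genes had every Maintenance library higher and 0.248% every one lower. A test of any difference among the 3 groups passed for the same 3 members (edgeR adjusted p = 0.0159 for Gusb, 0.0261 for Naglu and 0.00745 for Atp6v1d), beside 1.07% of all genes.

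Gusb encodes beta-glucuronidase, which removes glucuronic acid from glycosaminoglycans (chr5:129989011-130003049, minus strand, GRCm38; no exon shared with another annotated gene). Its CPM ran from 209 over a median of 255 to 267 in Saline, from 157 over 191 to 229 in Maintenance and from 220 over 231 to 258 in Abstinence. All 8 Maintenance libraries lay below the Saline median and all 7 Abstinence libraries above the Maintenance median, with the ranges still touching. The log2 fold change was -0.38 ± 0.08 (SE; adjusted p = 0.0145, edgeR), so the level fell by 23.2% in Maintenance. With Maintenance 6, 7 and 8 left out it was -0.27 ± 0.07 (adjusted p = 0.0859).

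Naglu encodes alpha-N-acetylglucosaminidase, an enzyme of heparan sulfate breakdown (chr11:101070090-101077672, plus strand, no shared exon). Saline libraries held 115, 165 and 181 CPM at the lowest, median and highest, Maintenance libraries 82.3, 110 and 118, and Abstinence libraries 86.9, 165 and 184. Saline 8, at 115, and Abstinence 1, at 86.9, were the only libraries of their groups inside the Maintenance range. The log2 fold change in Maintenance against Saline was -0.56 ± 0.12 (edgeR adjusted p = 0.0286), so the level fell by 32.1%, with 8 of 8 libraries below the Saline median. Without Maintenance 6, 7 and 8 the value was -0.57 ± 0.15 (adjusted p = 0.0906). With oligodendrocyte and neutrophil marker means as covariates it was -0.43 ± 0.14 (adjusted p = 0.253), and with a replicate block -0.54 ± 0.135 (edgeR adjusted p = 0.0805). Leaving out any 1 of Saline 1, 2, 3, 4 or 6 or Maintenance 2 or 4 also took the adjusted p above 0.05, up to 0.0766.

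Hexa and Ctsd stood next by p and did not pass. Hexa had 900, 1042 and 1189 CPM (lowest, median, highest) in Saline, 680, 893 and 1030 in Maintenance and 959, 1056 and 1111 in Abstinence. The Maintenance libraries were all below the Saline median, and Maintenance 8 was the lowest of all 23. For Hexa the log2 fold change was -0.21 ± 0.07 (edgeR adjusted p = 0.147). Ctsd ran from 8251 over 10360 to 11560 CPM in Saline, from 7595 over 8633 to 9964 in Maintenance and from 8352 over 11080 to 11480 in Abstinence. Again 8 of 8 Maintenance libraries were below the Saline median, at a log2 fold change of -0.24 ± 0.08 (edgeR adjusted p = 0.168). Both passed in limma voom with quality weights.

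**Figure D2:**
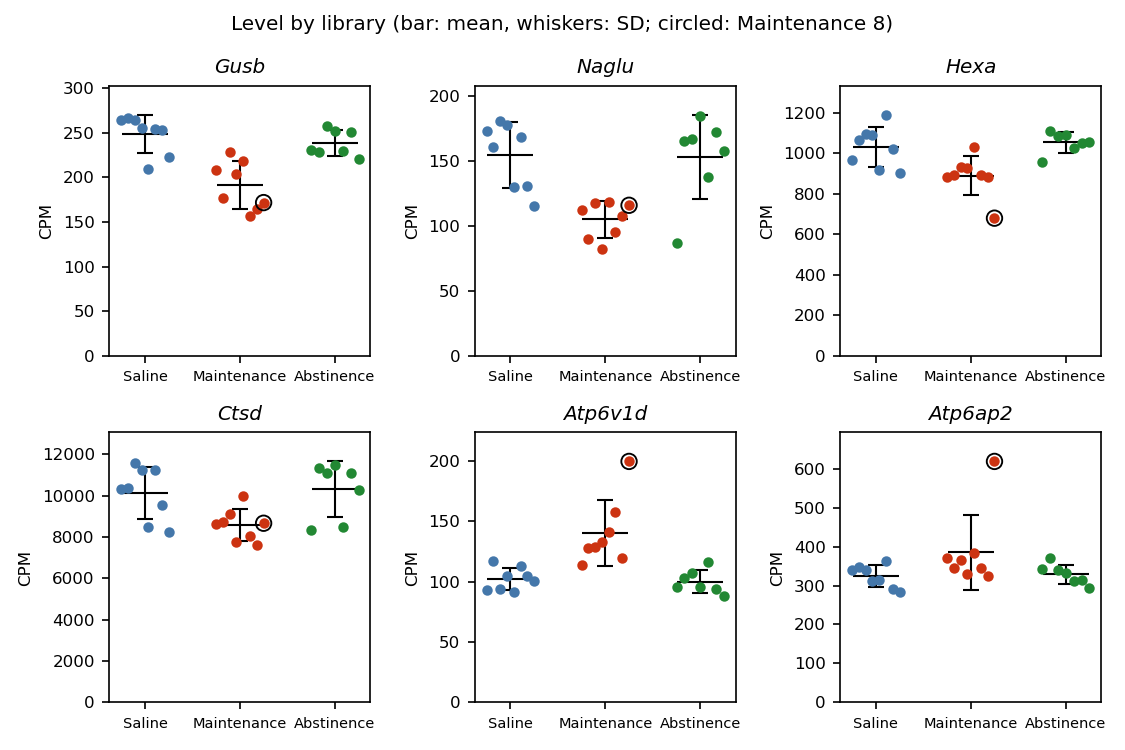
TMM-scaled CPM of 6 members in each library (points; black bar is the mean, whiskers the SD; 8 Saline, 8 Maintenance and 7 Abstinence libraries; the circle marks Maintenance 8). Gusb and Naglu are lower and Atp6v1d higher in Maintenance, and the highest Atp6ap2 value, 619 CPM, is Maintenance 8.

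Taken by role, 5 of the 6 glycosidases had a negative fold change in Maintenance against Saline, with a median of -0.22. The sixth, Gaa, was at 0.10 ± 0.22, and at -0.22 ± 0.15 without Maintenance 8, which held 133 CPM of it against at most 50.7 in the other 7. Man2b1, lysosomal alpha-mannosidase, was at -0.18 ± 0.09 (edgeR adjusted p = 0.422), and Glb1, acid beta-galactosidase, at -0.23 ± 0.14 (adjusted p = 0.563). Without Maintenance 8, Glb1 was at -0.35 ± 0.12 (edgeR adjusted p = 0.188). Outside the pump, 24 of 30 members were negative and the median was -0.08, beside 49.4% negative among all genes. Of these 30 members, 22 and 24 were negative with RLE and upper-quartile scaling. With the marker covariates 19 were negative with a median of -0.03 (all genes 0.01). The median was -0.05 without Maintenance 6, 7 and 8 (all genes -0.03) and also without Saline 6 (all genes 0.01). With a replicate block 25 were negative with a median of -0.09 (all genes -0.07). With limma voom 25 were negative with a median of -0.12 (all genes -0.08).

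None of the 10 proteases passed. Ctss spanned 13850 to 17710 CPM in Saline (median 16110), 11440 to 17910 in Maintenance (15730) and 14800 to 17170 in Abstinence (15480), with a log2 fold change of -0.06 ± 0.07 in Maintenance against Saline. Ctsb, the cysteine protease cathepsin B, spanned 5105 to 6808 (median 5934), 4675 to 6496 (5830) and 5703 to 6443 CPM (5956) in the same order, at -0.04 ± 0.06. The lowest Maintenance library for both genes was Maintenance 8, and the 3 groups overlapped. Ctsc, dipeptidyl peptidase I, which activates granule proteases, and Ctsh were the 2 proteases with a positive value, 0.11 ± 0.08 and 0.03 ± 0.08. The carboxypeptidases Ctsa (-0.08 ± 0.06) and Ctsz (-0.13 ± 0.07), the cysteine proteases Ctsf (-0.01 ± 0.06) and Ctsl (-0.13 ± 0.08) and Lgmn (-0.13 ± 0.07) were negative. Lgmn ran from 8675 over 10060 to 11250 CPM in Saline, 6945 over 9387 to 10560 in Maintenance and 8915 over 9584 to 9986 in Abstinence, with Maintenance 8 again lowest and the groups overlapping.

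Lipid-handling members and membrane proteins showed small differences. Psap, Grn, Npc1, Npc2, Lipa and Asah1 ranged from -0.13 to 0.06, with none called (smallest edgeR adjusted p 0.721). Cd68, a macrophage lysosomal glycoprotein, ran from 1065 over 1250 to 1388 CPM in Saline, 847 over 1211 to 1328 in Maintenance and 1064 over 1171 to 1294 in Abstinence, at -0.09 ± 0.07. Lamp1, a major glycoprotein of the lysosomal membrane, was uneven between libraries of a group: 715 to 1225 CPM in Saline (median 1100), 486 to 1161 in Maintenance (1012) and 414 to 1289 in Abstinence (899). Single libraries, Saline 6, Maintenance 4 and Abstinence 2, set its low ends. Its fold change was -0.18 ± 0.19 (edgeR adjusted p = 0.811). Lamp2, the receptor of chaperone-mediated autophagy in one of its forms, was at 0.11 ± 0.06, with 7 of 8 Maintenance libraries above the Saline median. Cd63, a tetraspanin of late endosomes, was at 0.18 ± 0.16 with Maintenance 8 and at -0.07 ± 0.07 without it, since that library held 810.0 CPM and the other 7 held 260 to 343. Scarb2, the sorting receptor of beta-glucocerebrosidase, was at -0.08 ± 0.06. The calcium channel gene Mcoln1 was at -0.05 ± 0.13, and at -0.16 ± 0.12 without Maintenance 8. Across libraries the log2 CPM of Lamp1 had a median correlation of -0.10 with the other members, while that of Grn, the progranulin gene, had 0.48. Over all 861 pairs of tested members the median r was 0.26 across the 23 libraries, which share depth and composition, so it is a description only.

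Tfeb and Tfe3 were spread widely in Maintenance. Tfeb had 6.45, 9.30 and 12.3 CPM (lowest, median, highest) in Saline, 4.40, 8.52 and 13.8 in Maintenance and 8.09, 10.0 and 13.4 in Abstinence. Tfe3 had 85.2, 123 and 142 CPM in Saline, 60.8, 101 and 131 in Maintenance and 107, 132 and 156 in Abstinence. Maintenance 2 and 6 were lowest for Tfeb and Maintenance 6 and 7 for Tfe3, and all groups overlapped. Neither passed in Maintenance against Saline (Tfeb -0.13 ± 0.23; Tfe3 -0.27 ± 0.13, edgeR adjusted p = 0.44). Leaving out Maintenance 6, 7 and 8 brought Tfe3 to -0.07 ± 0.11.

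**Figure D3:**
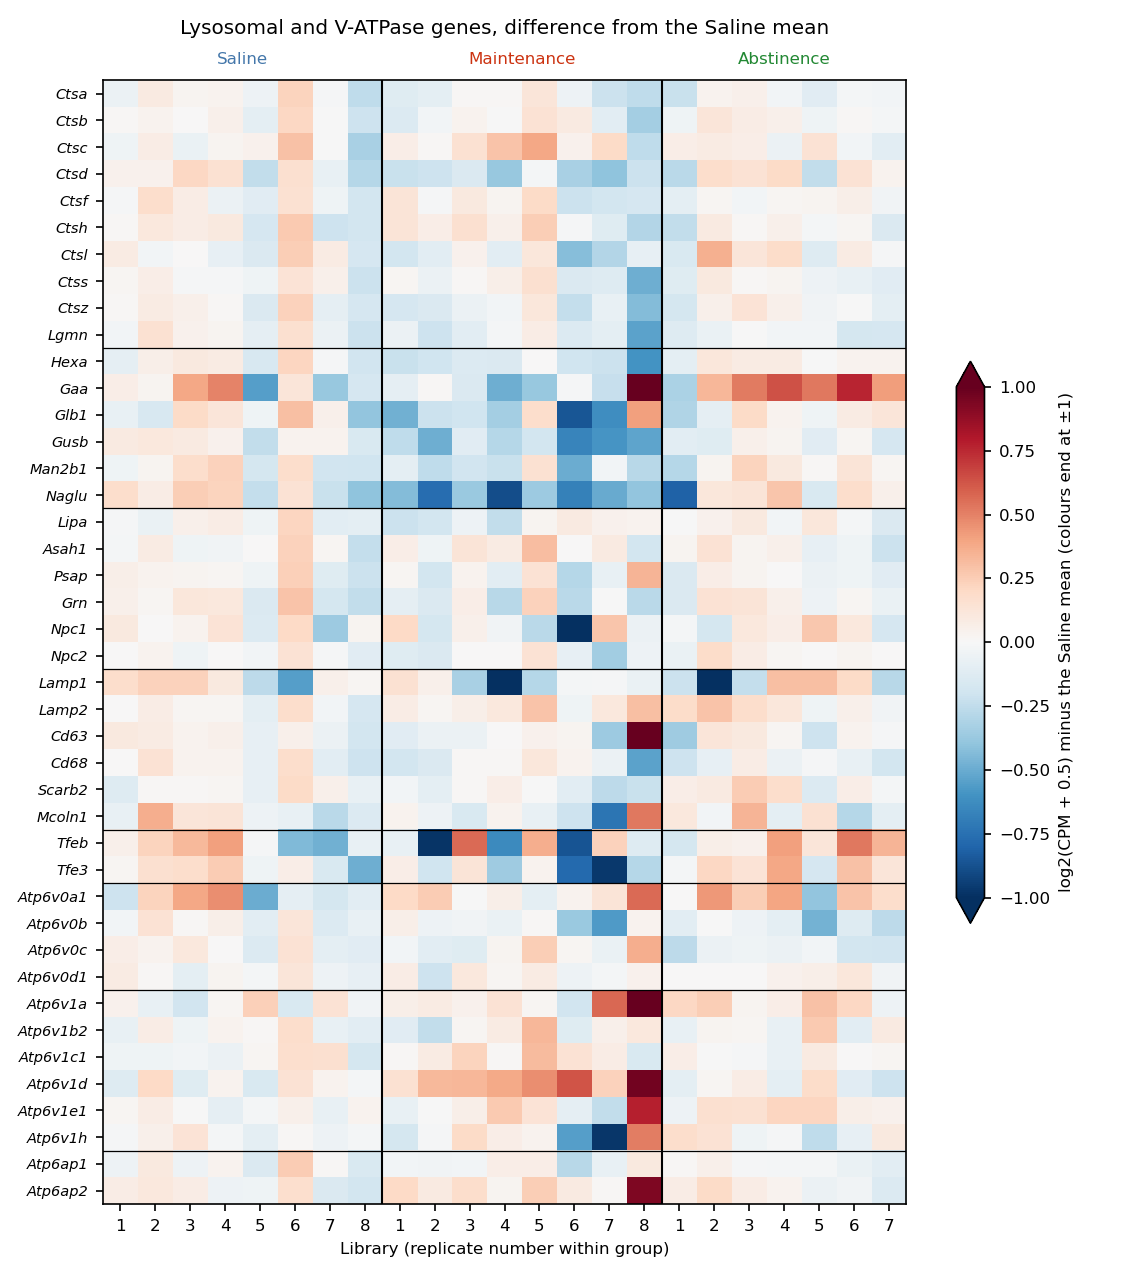
Difference of each library from the Saline mean on the log2(CPM + 0.5) scale for the 42 tested members (rows by role, columns by library; red higher, blue lower, colours end at ±1). The Atp6v1d row is red across the Maintenance libraries and the Naglu row blue, and Maintenance 8 is dark for Gaa, Cd63 and several pump genes.

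In the pump, Atp6v1d rose. It encodes the V1 subunit D of the central rotor shaft (chr12:78842982-78862008, minus strand, no shared exon). CPM ran from 91.7 over 102 to 117 in Saline, from 113 over 131 to 199 in Maintenance and from 88.0 over 95.3 to 116 in Abstinence. All 8 Maintenance libraries were above the Saline median, and only the lowest of them, Maintenance 1, fell below the highest Saline library. The log2 fold change was 0.45 ± 0.09 (edgeR adjusted p = 0.019), 1.37-fold. It was 0.36 ± 0.08 without Maintenance 8 (adjusted p = 0.0183) and 0.33 ± 0.08 without Maintenance 6, 7 and 8 (adjusted p = 0.0451). Leaving out Saline 3 gave an adjusted p of 0.0525. With only the libraries of the second deposited table it was 0.33 ± 0.09 (edgeR adjusted p = 0.0661), and with only the 2 groups fitted the adjusted p was 0.0531.

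The other pump genes did not pass, and several rested on Maintenance 8. Atp6ap2, the (pro)renin receptor, an accessory protein of the pump, had 284, 327 and 364 CPM in Saline (lowest, median, highest), 326, 355 and 619 in Maintenance and 294, 332 and 370 in Abstinence. The next highest Maintenance library had 383. The log2 fold change was 0.25 ± 0.10 (edgeR adjusted p = 0.285) with Maintenance 8 and 0.12 ± 0.06 without it. Atp6v1a, the catalytic V1 subunit A, went from 0.36 ± 0.16 to 0.11 ± 0.09, and Atp6v1e1, of the peripheral stalk, from 0.14 ± 0.10 to 0.01 ± 0.07.

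Averaged over the 6 V1 genes, Maintenance 8 was 0.61 above the Saline mean on the log2 scale, against -0.05 to 0.22 in the other 7 Maintenance libraries. Averaged over the 10 proteases it was at -0.31, against -0.14 to 0.15. Maintenance 8 is also the library with the high choroid plexus markers, and their part in the result was not tested. Of the 12 tested pump genes, 9 were positive in Maintenance against Saline with a median of 0.07, beside 50.6% positive among all genes. Without Maintenance 8, 8 were positive and the median was 0.01, beside -0.03 for all genes. Without Maintenance 6, 7 and 8, 11 were positive with a median of 0.04 (all genes -0.03). The marker covariates gave 11 positive with a median of 0.12 (all genes 0.01). With limma voom 6 were positive and the median was 0.001 (all genes -0.08). The regulatory V1 subunit gene Atp6v1h was at -0.06 ± 0.13 with Maintenance 8 and -0.16 ± 0.12 without it. Smaller differences were measured for Atp6v1c1 (0.09 ± 0.06), Atp6v1b2 (0.02 ± 0.07), Atp6v0d1 (0.01 ± 0.05) and Atp6ap1 (-0.03 ± 0.06), and the V0 genes Atp6v0a1 and Atp6v0b were at 0.12 ± 0.13 and -0.11 ± 0.08.

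**Figure D4:**
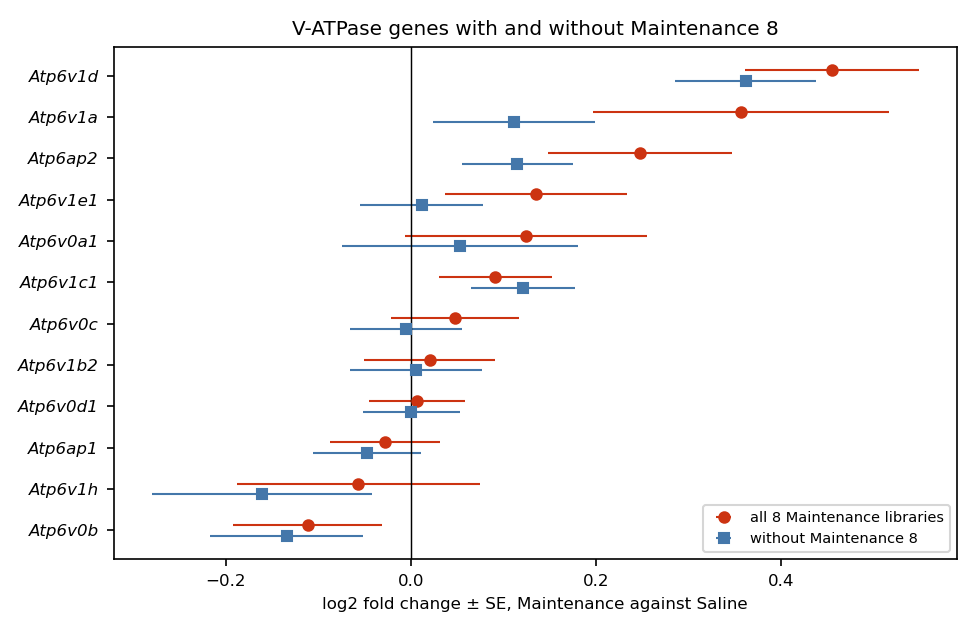
Log2 fold change (± SE) of the 12 tested V-ATPase genes in Maintenance against Saline with all 8 Maintenance libraries (circles) and without Maintenance 8 (squares). Atp6v1d stays at 0.36 without it, and Atp6v1a goes from 0.36 to 0.11.

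After abstinence, the same 3 members differed from Maintenance in the opposite direction. This comparison shares the Maintenance libraries with the preceding one, so the values are set side by side and are not independent. Abstinence libraries were also taken 21 days later, so time without the drug, age and time since the sessions cannot be told apart. In Abstinence against Maintenance, 3 of 42 members passed (edgeR), beside 0.949% of all genes, 0.397% higher and 0.552% lower. Atp6v1d fell by 0.49 on the log2 scale (SE 0.10, adjusted p = 0.0112), Naglu rose by 0.54 ± 0.13 (adjusted p = 0.0334) and Gusb by 0.32 ± 0.08 (adjusted p = 0.0426). All 7 Abstinence libraries were below the Maintenance median of Atp6v1d, and 6 of 7 above that of Naglu. Leaving out any single library kept Atp6v1d under 0.05, while Gusb stayed under it for only 6 of the 23 libraries left out and Naglu for 15. Without Maintenance 6, 7 and 8, Gusb was at 0.20 ± 0.07 (adjusted p = 0.202), Naglu at 0.55 ± 0.15 (0.0805) and Atp6v1d at -0.37 ± 0.08 (0.0152). With the libraries of the second deposited table, Gusb was at 0.19 ± 0.06 (edgeR adjusted p = 0.158) and Naglu at 0.54 ± 0.15 (0.068). Atp6v1d was at -0.38 ± 0.08 (0.0145) with those libraries.

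Gaa was at 0.31 ± 0.23 (edgeR adjusted p = 0.739) with Maintenance 8. Without that library it was at 0.62 ± 0.15 and passed (adjusted p = 0.0349), and without Maintenance 6, 7 and 8 at 0.65 ± 0.17 (adjusted p = 0.0594). It also passed with the libraries of the second deposited table. Gusb was at 0.29 ± 0.08 without Maintenance 8 (adjusted p = 0.0597). Glb1 went from 0.22 ± 0.14 to 0.33 ± 0.12 without that library (edgeR adjusted p = 0.233). Cd63 and Atp6v1a turned without Maintenance 8, from -0.22 to 0.02 and from -0.22 to 0.02.

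Hexa (0.24 ± 0.07, edgeR adjusted p = 0.0927), Ctsd (0.27 ± 0.08, 0.132) and Tfe3 (0.40 ± 0.14, 0.186) followed by p and did not pass. Without Maintenance 6, 7 and 8, Tfe3 was at 0.20 ± 0.11 (edgeR adjusted p = 0.583). All 7 Abstinence libraries were above the Maintenance median for Hexa and for Tfe3, and 5 of 7 for Ctsd. Ctsl (0.19 ± 0.08), Man2b1 (0.21 ± 0.09), Atp6v0c (-0.17 ± 0.07), Scarb2 (0.15 ± 0.07) and Atp6ap2 (-0.23 ± 0.10) came next, at adjusted p of 0.344 to 0.392. Atp6ap2 was at -0.11 ± 0.06 without Maintenance 8. At an unadjusted p under 0.05 there were 11 members (26.2%) against 11% of all genes. All 6 glycosidases were positive with a median of 0.28, and 24 of the 30 members outside the pump were positive (22 and 25 with RLE and upper-quartile scaling), beside 50.8% of all genes. Leaving out Maintenance 6, 7 and 8 brought that to 19 of 30, with a median of 0.05 beside 0.03 for all genes. In the main fit the median of these 30 was 0.08 (all genes 0.01). It was 0.08 with a replicate block (all genes 0.09), where 20 were positive, and 0.09 with limma voom (all genes 0.07), where 23 were. Of the 12 pump genes, 5 were positive in the main fit. Ranges overlapped for all 42 members, while 0.205% of all genes had every Abstinence library above every Maintenance library and 0.198% below.

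No member passed in Abstinence against Saline. In edgeR, DESeq2 and limma voom alike, 0 of 42 passed, and at an unadjusted p under 0.05 there were 0 members in edgeR against 4.39% of all genes (0.0186% passed after adjustment). That count was 2 (4.76%, all genes 5.25%) without Maintenance 8 and 3 (7.14%, all genes 7.94%) without Maintenance 6, 7 and 8. It was 4 (9.52%, all genes 8.28%) with the libraries of the second deposited table and 5 (11.9%, all genes 14.2%) with limma voom. Ranges overlapped for all 42, beside 0.0496% of all genes with every Abstinence library above Saline and 0.149% below. The smallest p belonged to Atp6v0b, a proteolipid of the V0 ring, with 431, 470 and 523 CPM in Saline (lowest, median, highest) and 340, 439 and 472 in Abstinence. Its ranges overlapped, at -0.16 ± 0.08 (edgeR adjusted p = 0.999). Gaa followed, with 34.2 to 71.1 CPM in Saline (median 52.1) and 40.4 to 85.4 in Abstinence (72.2), at 0.41 ± 0.23. Maintenance 8 is in neither group but shares the fit, and without it Gaa was at 0.40 ± 0.15 (edgeR unadjusted p = 0.0117, adjusted p = 0.616). In 6 of 7 Abstinence libraries it was above the Saline median.

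Atp6v0c, the other ring proteolipid, had 211, 236 and 257 CPM in Saline and 194, 223 and 228 in Abstinence (lowest, median, highest), at -0.12 ± 0.07. All 7 Abstinence libraries were below the Saline median. Lamp2 was at 0.10 ± 0.06 (895 to 1135 CPM in Saline, 978 to 1225 in Abstinence), Lgmn at -0.09 ± 0.07 and Atp6v0a1 at 0.16 ± 0.13. Gusb, Naglu and Atp6v1d stood at -0.06, -0.01 and -0.03. A miss of the threshold does not show equal levels. Reads of Atp6v0c, Atp6ap2 and Cd63 are uncertain, since each has a near-identical copy in the genome (for Atp6v0c, 99.8% over 465 bases). Exons of 8 members also overlap those of another tested gene, among them Hexa, Ctsb, Lamp1 and, on the same strand, Glb1. Ctsd shares 808 exon bases on its strand with Gm49369, a gene absent from the deposited counts. Reads in such stretches are uncertain too.

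**Figure D5:**
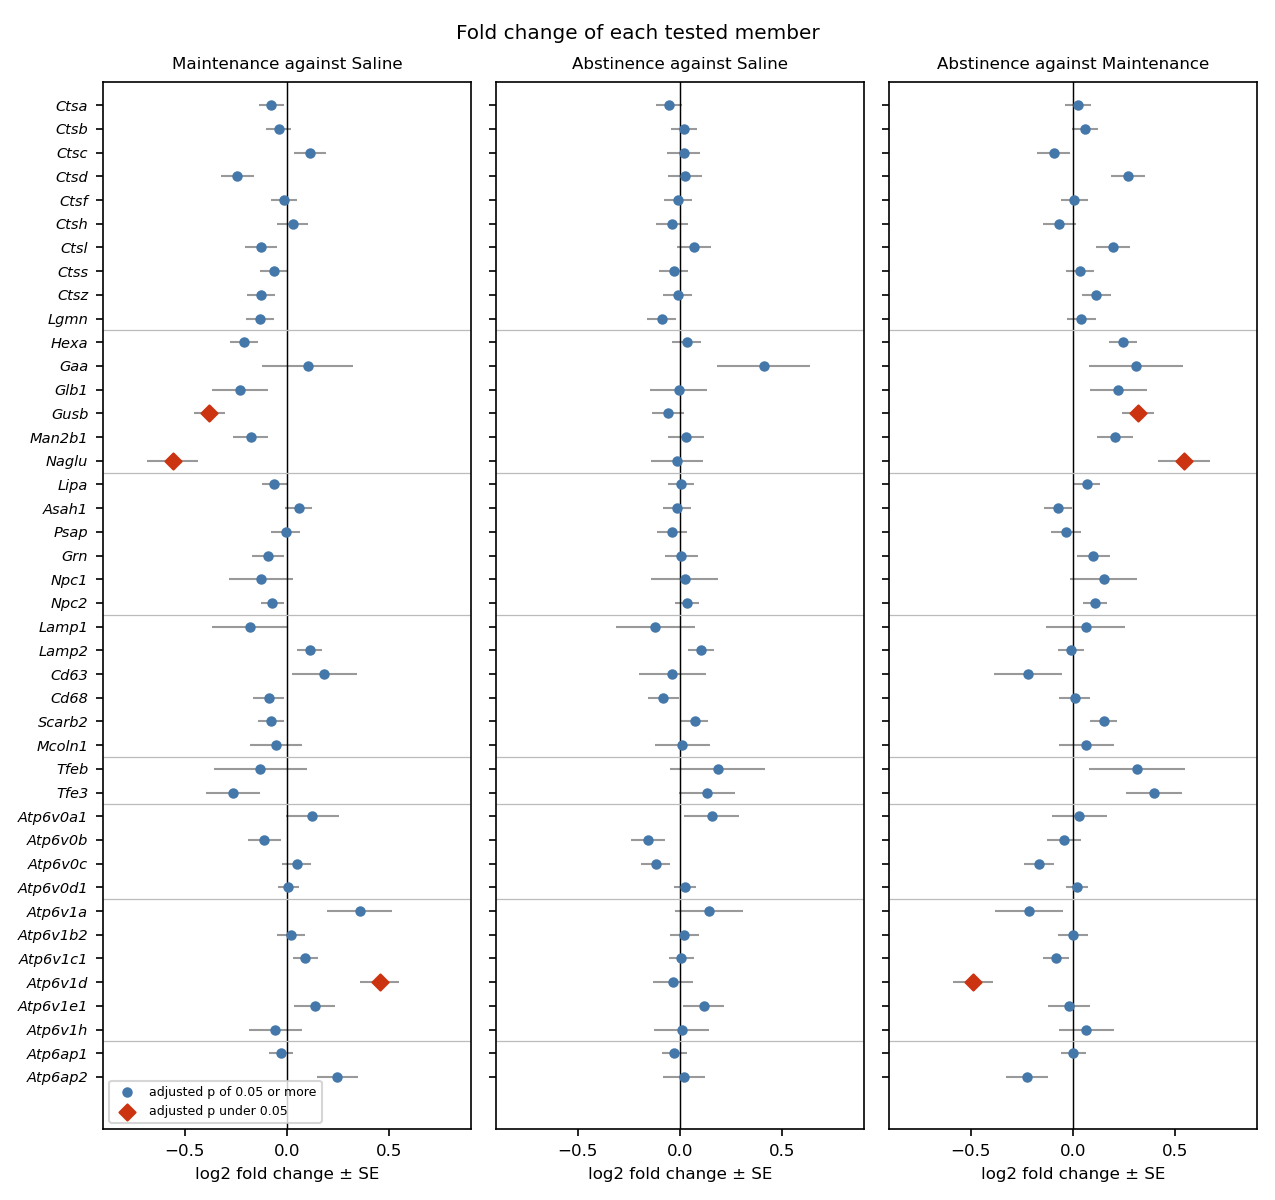
Log2 fold change (± SE, edgeR) of each tested member in the 3 comparisons, with red diamonds for an adjusted p under 0.05. Gusb, Naglu and Atp6v1d are the only diamonds, in the left and right panels, and the middle panel, Abstinence against Saline, has none.

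Spread also differed between groups as a description. The median coefficient of variation of a tested member was 13% in Maintenance, against 9.1% in Saline and 7.8% in Abstinence. Without Maintenance 8 the Maintenance median was 9.9%, and the value of Gaa went from 57.4% to 12.9%.

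Beyond the members, 124 further genes of lysosomes, pump, lysosomal mTORC1 signalling and autophagy were listed, and 120 were tested. In Maintenance against Saline 1 fell and 0 rose, in Abstinence against Maintenance 1 rose and 0 fell, and in Abstinence against Saline 0 passed (edgeR). Unadjusted p under 0.05 held for 11.7%, 15.0% and 4.17% of them in that order. The gene that passed was Slc15a3 both times, a lysosomal histidine and peptide transporter, with 22.1 ± 3.01 CPM (SD) in Maintenance, less than the 29.8 ± 2.72 of Saline and the 31.2 ± 3.33 of Abstinence. Its log2 fold change was -0.43 ± 0.10 in Maintenance against Saline (edgeR adjusted p = 0.0359) and 0.50 ± 0.10 in Abstinence against Maintenance (0.0127). It shares 1541 exon bases with Tmem132a on the opposite strand, and the strand of the reads is not given in the sources used here.

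Of the mTORC1 genes, Lamtor1, a subunit of the Ragulator scaffold, was closest at -0.32 ± 0.08 in Maintenance against Saline (edgeR adjusted p = 0.0699), followed by Lamtor4 at -0.35 ± 0.11 (0.134). In autophagy, Vps11 (-0.21 ± 0.09) and Atg12 (0.24 ± 0.10) both had an edgeR adjusted p of 0.341 in Maintenance against Saline. Among the 34 further hydrolases and cofactors the smallest in that comparison was 0.398, for Arsa, arylsulfatase A. Of the 8 tested further pump genes it was 0.534, for Atp6v1g1 at -0.10 ± 0.06. In Abstinence against Maintenance the smallest edgeR adjusted p was 0.227 for the mTORC1 genes and 0.166 for autophagy. It was 0.253 for the further hydrolases and 0.651 for the further pump genes.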

How the data were processed

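The authors deposited counts of reads per gene, named by symbol, for 35976 genes in 23 libraries. The aligner STAR (2.7.10a), the assembler StringTie (2.1.5), the trimmers cutadapt (1.18) and Trim Galore (0.6.7), DESeq2 (1.38.3) and the build mm10 (GRCm38) are named in the submitters' processing notes. Their order, settings and strand are not given in the sources used here. A second deposited table held the same counts for 17 libraries (0 of 611592 values differed) and served as an alternative set of libraries. It leaves out Saline 5, 6 and 8 and Maintenance 6, 7 and 8, and the reason is not given in the sources used here.

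Genes were kept with filterByExpr by group (minimum count 10, total 15), which left 16121. All 23 libraries entered 1 fit (edgeR 4.0.16, R 4.3.3: TMM, estimateDisp, glmQLFit with robust = TRUE, glmQLFTest), adjusted by Benjamini-Hochberg over all genes tested, with a threshold of 0.05. The SE is the fold change divided by the square root of F. CPM are TMM-scaled. Lengths are merged exons of GENCODE M21, and positions and promoters are RefSeq GRCm38.p6. Alternatives were RLE and upper-quartile factors, other filters, DESeq2 1.42.0, limma voom (limma 3.58.1), a replicate block, other sets of libraries and marker covariates. The fit was also tested on simulated data. Members, lists and alternatives were chosen with earlier results of these data known. Full values were given for members that passed, for those of smallest p in each comparison up to 6, for Ctsb, Ctsd, Ctss, Cd68, Lamp1, Tfeb, Tfe3 and Atp6v0d2, and for the 3 highest per length.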

Additional observations from a re-analysis of the deposited data

Results flagged for a closer look

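In 8 of 126 member and group pairs, 1 library lay far from the rest of its group (Dixon's test at 95%), where chance gives about 1 in 20. Of these, 7 were in Maintenance 8. There Atp6ap2 had 618.5 CPM (next 383), Atp6v0a1 107 (next 86.1), Atp6v1a 297 (next 165), Atp6v1e1 225 (224.5; next 156), Cd63 810.0 (next 343) and Gaa 133 (next 50.7), each the highest of the Maintenance group. Hexa was lowest there at 680 CPM (679.6; next 882). In Maintenance 6, Npc1, which exports cholesterol from lysosomes, had 25.8 CPM (25.75; next 66.1).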

How the results depend on the processing

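Members that passed in Maintenance against Saline numbered 3, and 5 with limma voom, 1 with only the compared groups fitted, 1 without Maintenance 6, 7 and 8, and 1 to 3 with 1 library left out (1 without Saline 3). In Abstinence against Maintenance they numbered 3, and 5 with DESeq2, 5 with voom, 0 with only the compared groups, 1 without Maintenance 6, 7 and 8, and 1 to 4 by library. In Abstinence against Saline 0 passed in every alternative run. Fitting the compared groups alone left Gusb at an adjusted p of 0.0524 and Atp6v1d at 0.0531 (edgeR) in Maintenance against Saline. Over all genes, Maintenance against Saline gave 114 (433 with DESeq2, 413 with voom, 57 with the compared groups, 176 with the second table's libraries, 44 with covariates, 42 to 197 by library). Abstinence against Saline gave 3 (6 with a 1 CPM filter, 90 with DESeq2, 208 with voom, 5 with the compared groups, 15 without Maintenance 6, 7 and 8, 56 with the second table's libraries, 0 with covariates, 1 to 15 by library). Abstinence against Maintenance gave 153 (242 with a 1 CPM filter, 529 with DESeq2, 340 with voom, 64 with the compared groups, 238 with the second table's libraries, 89 to 265 by library). With a replicate block, 69 genes passed in Maintenance against Saline, and 1 member, Atp6v1d, in Abstinence against Maintenance. Correlation showed no pairing by replicate number: 0 of 22 same-numbered pairs had a correlation over 0.1, and 1 of 23 libraries correlated best with its own number. A batch shared by number is not excluded by this. Among the 41 pairs of a member and a comparison that the naming rule chose, signs changed in 11, none called and none over 0.12 in size. Over all 42 tested members, leaving out Maintenance 8 turned 4 signs in each comparison with Saline and 10 in Abstinence against Maintenance, none called, with Cd63 the largest (0.18 to -0.07, and -0.22 to 0.02). Leaving out Maintenance 6, 7 and 8 turned 6 in Maintenance against Saline (Atp6v1h from -0.06 to 0.02), 4 in Abstinence against Saline and 10 in Abstinence against Maintenance, none called. In Maintenance against Saline, Ctsb was 0.0213 with covariates, and Ctss 0.0311 without Maintenance 6, 7 and 8 and 0.0177 with the second table's libraries. In Abstinence against Saline, Naglu was 0.124 with covariates (-0.0730 to 0.0849 by library), Atp6v1d 0.00193 with the replicate block and 0.0739 with covariates, Ctsb -0.0138 with the block and -0.00476 with the second table's libraries (-0.0163 to 0.0495 by library), Ctsd -0.0488 with those libraries (-0.0198 to 0.0693) and Lamp1 -0.20 to 0.0119 by library. In Abstinence against Maintenance, Ctss was -0.00608 with voom, -0.00367 with the block, -0.0712 without Maintenance 6, 7 and 8 and -0.0771 with the second table's libraries (-0.0280 to 0.0600 by library). Cd68 was -0.00513 with RLE factors, -0.00958 with the 1 CPM filter, -0.00464 with DESeq2, -0.0304 with the block, -0.0439 without Maintenance 6, 7 and 8 and -0.0502 with the second table's libraries (-0.0560 to 0.0303). Lgmn was -0.0301 and -0.0363 under the last 2 of these (-0.0190 to 0.0631), and Lamp1 was -0.0415 to 0.194 by library. The cause was not tested.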
